A study of Mus musculus with 6 samples.

Results

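The distal CTCF regions that were called with wild-type CTCF and not with an O-GlcNAc-deficient CTCF are described here. CTCF binding had been mapped by chromatin immunoprecipitation followed by sequencing (ChIP-seq) in mouse embryonic stem cells whose endogenous CTCF carried EGFP and an auxin-inducible degron. In both groups auxin degraded the endogenous protein, and a vector supplied its replacement. The replacement was wild-type in the WT_CTCF cells. In the MUT_CTCF cells alanine stood in place of the threonine that bears O-GlcNAc. A clone whose introduced CTCF was close to the endogenous level was picked for each, so genotype and clone cannot be told apart in these libraries. Each genotype had 2 replicate ChIP libraries made with an antibody to CTCF, which are used here, and 1 input library, which is not, for 6 samples in all.

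The members were chosen by the peak calls themselves. Of 57662 joined regions, 57644 lay on chromosomes 1 to 19 and X, and 50849 of these were distal, which here means more than 1 kb from every annotated transcript start. A distal region was a member if it overlapped a peak in both WT_CTCF libraries and none in either MUT_CTCF library. This gave 9697 members, 19.1% of all distal regions and 23.9% of the 40653 distal regions called in both WT_CTCF libraries. These shares are a consequence of the rule and are given as descriptions. The number of members was 16187 when WT_CTCF replicate 1 was left out and 12804 when WT_CTCF replicate 2 was. In both cases a region needed a single WT_CTCF call. The number was 12197 without MUT_CTCF replicate 1 and 11279 without MUT_CTCF replicate 2. The peak lists themselves differed in length, with 49987 and 54001 peaks in WT_CTCF replicates 1 and 2 and 33939 and 32712 peaks in MUT_CTCF replicates 1 and 2. The read depth behind these lists is unknown here, so an absent MUT_CTCF peak means that no peak was called, not that CTCF was absent.

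CTCF binds a long DNA motif through its zinc fingers and, with the cohesin ring complex, anchors chromatin loops and insulates neighbouring domains. Most of its sites lie away from promoters. O-GlcNAc is a sugar that the enzyme OGT adds to serines and threonines of nuclear proteins. The series asked how the loss of O-GlcNAc from CTCF affects binding. The paper reported higher binding of the mutant CTCF over the genome, from spike-in-scaled ChIP-seq and from blots of chromatin-bound protein. It also reported higher chromatin accessibility at the peaks with enhanced binding, and like results in additional clones of both genotypes. The members were picked by peak calls and do not measure that genome-wide binding. CTCF binding is also known to be sensitive to CpG methylation in some motifs. In rodents, many CTCF motifs were spread by B2, a short interspersed repeat that copied itself through the genome. B2 copies were not annotated here, and sequence was described only by its letters and by how often it recurs.

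The DNA under the members is best seen in the motif. A 13-base CTCF core motif was searched on both strands within 100 bp of the peak summit in each WT_CTCF library, with at most 1 mismatch. Over the distal regions called in both WT_CTCF libraries, 2 core sequences were the most frequent. These 2 cores, found in 3159 members in the windows of WT_CTCF replicate 1, are shown because a larger share of members than of the other distal classes held them.
First core: CCAGAAGAGGGCA
Second core: CCAGAAGAGGGCG
Each departs from the core motif at 1 base, at position 5 counted from its 5′ end. The 8 bases on either side of them also recurred. The 4 sequences of 29 bases that were seen in most members, with the core in capitals, are given next; 1 chromosome was left out of their counts. Each occurs at many places in the genome, so it has no single position.
Seen in 197 members and in 34 distal regions called in all 4 libraries: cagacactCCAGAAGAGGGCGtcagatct
Seen in 98 members and 28 regions called in all 4: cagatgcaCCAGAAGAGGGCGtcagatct
Seen in 67 members and 7 regions called in all 4: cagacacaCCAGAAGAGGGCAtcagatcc
Seen in 65 members and 122 regions called in all 4: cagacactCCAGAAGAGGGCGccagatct
The first 3 sequences were seen in more members than regions called in all 4 libraries, although the members were fewer, and the fourth was not.

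A longer stretch shows one such member. The region chr11:20380749-20381234 (mm9) is intergenic, 62022 bp from the nearest protein-coding start, that of Sertad2. It had a score of 332 in WT_CTCF replicate 1 and 393 in replicate 2 and no MUT_CTCF peak, and is the strongest intergenic member with 1 of the 2 commonest cores in sequence that recurs in the genome. The 101 bases around its summit, chr11:20380955-20381055, are printed on the forward strand, with the core, which lies on the reverse strand, in capitals.
Recurring member: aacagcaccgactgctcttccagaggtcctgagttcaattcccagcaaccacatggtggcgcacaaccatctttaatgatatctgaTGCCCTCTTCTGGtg
The stretches of 31 bases sampled across this summit occurred a median of 16 times in the genome.

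The members with the highest scores looked different. The highest-scoring intergenic member whose summit window was over 65% G+C lay at chr5:37554341-37554923 (mm9), 22213 bp from the start of Gm1043. It scored 738 and 1108 in WT_CTCF replicates 1 and 2. The 201 bases around its summit, chr5:37554479-37554679, were 70.1% G+C and held 20 CG dinucleotides, shown in capitals, and no core match within 1 mismatch.
G+C-rich member: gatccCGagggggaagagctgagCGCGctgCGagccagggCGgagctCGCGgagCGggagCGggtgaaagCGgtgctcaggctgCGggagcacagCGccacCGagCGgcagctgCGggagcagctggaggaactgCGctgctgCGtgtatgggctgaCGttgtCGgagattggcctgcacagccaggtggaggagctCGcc
The sampled stretches of 31 bases here occurred a median of 1 time in the genome.

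Members had low WT_CTCF scores. Scores were taken from the deposited peak lists, whose sources do not define them. The median score of the members was 90 in both WT_CTCF libraries, against 560 and 604 for the 26874 distal regions called in all 4 libraries, and 145 and 164 for the 4082 distal regions called in both WT_CTCF libraries and in 1 MUT_CTCF library. The members' peaks were also narrow, with median widths of 256 bp in WT_CTCF replicate 1 and 287 bp in replicate 2, against 522 and 551 bp for regions called in all 4 libraries. The authors' mean, which is the mean spike-in-scaled signal of a region over all 4 libraries, had a median of 46.0 over the members, with quartiles of 36.5 and 57.5. Its median was 71.25 over regions called in 1 MUT_CTCF library and 200.2 over those called in all 4. Score, width and mean all bear on whether a peak is called, so these differences follow the rule and were not tested.

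The lower of the 2 WT_CTCF scores of a region was used to rank the members among themselves. It ranged from 13 to 883, with a median of 75 and quartiles of 55 and 112. It was 91 or less in 6535 members (67.4%) and over 300 in 76 (0.784%). The scores of replicates 1 and 2 had a Spearman correlation of 0.68 over the 9697 members and 0.96 over the regions called in all 4 libraries. These are descriptions over regions that share the same 2 libraries. The lower score of the regions called in all 4 libraries covered a wider range, from 21 to 19708, so the 2 correlations are not directly comparable. The median ratio of the replicate 2 score to the replicate 1 score was 1.11 over the members, with quartiles of 0.826 and 1.46, so the scores of single members differed between the libraries although the medians did not. The 2 WT_CTCF summits of a member lay a median of 14 bp apart, against 7 bp for regions called in all 4 libraries.

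**Figure D1:**
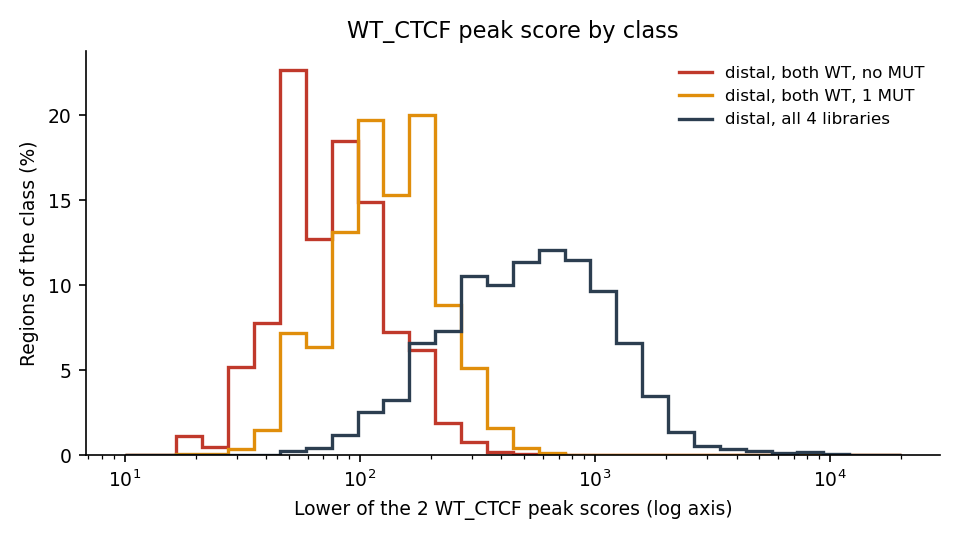
Distribution of the lower of the 2 WT_CTCF peak scores (horizontal log axis, score of the deposited lists) in percent of the regions of each class (vertical axis), for the 9697 members (distal, both WT, no MUT), the 4082 distal regions called in 1 MUT_CTCF library and the 26874 called in all 4 libraries. The members lie lowest, with a median of 75, against 126 and 536 for the other classes, and the 3 distributions overlap.

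The absence of a MUT_CTCF peak followed the WT_CTCF score closely. The 40653 distal regions called in both WT_CTCF libraries were ranked by their lower score and cut into 10 groups of nearly equal size, called deciles. In the lowest decile, with scores of 13 to 57, 88.5% had no MUT_CTCF peak. The share was 72.2% at scores of 58 to 91, 44.7% at 92 to 138, 21.7% at 139 to 203 and 6.25% at 204 to 300. It was 1.25% at 301 to 424, and 22 members remained above that, none of them in the highest decile. At scores of 139 to 203, a further 25.9% of regions had a peak in exactly 1 MUT_CTCF library. Weak WT_CTCF peaks made up most of the members. The share in the lowest decile was 87.3% and 86.1% when regions were ranked by the score in WT_CTCF replicate 1 or 2 alone, and 98.4% when they were ranked by the authors' mean, which itself contains the MUT_CTCF signal.

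**Figure D2:**
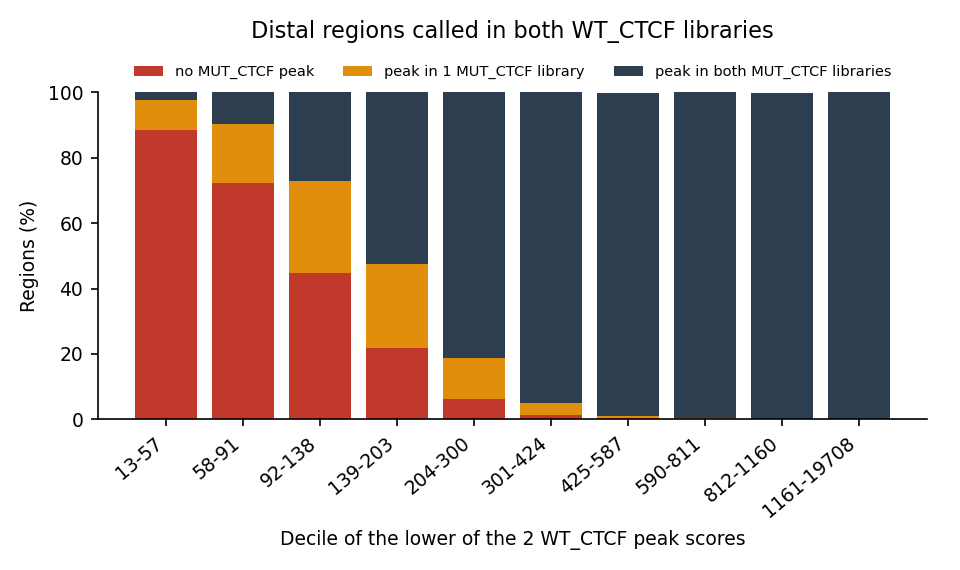
Percent of distal regions called in both WT_CTCF libraries (vertical axis) with no peak, a peak in 1 or a peak in both MUT_CTCF libraries, in deciles of the lower WT_CTCF score (horizontal axis, score range of each decile, 40653 regions in all). The share with no MUT_CTCF peak goes from 88.5% in the lowest decile to 0 in the highest.

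The CTCF core motif was present in most of the members, less often than in distal regions called in all 4 libraries. A match with at most 1 mismatch was found in 54.6% of members in the windows of WT_CTCF replicate 1 and 54.5% in those of replicate 2 (54.5% ± 0.102, SD, n = 2 libraries). The share was 69.5% ± 0.0289 in regions called in all 4 libraries and 59.7% ± 0.0693 in those called in 1 MUT_CTCF library. Windows of the same size 5 kb to either side of the members held a match in 1.87%. The SD here describes how far the 2 libraries differ, and since both read nearly the same windows it is small. Regions are not replicates, and no test between classes was run for the sequence features.

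The difference was larger for complete motifs. A core without any mismatch was found in 4.13% ± 0.051 of members and in 20.1% ± 0.00263 of regions called in all 4 libraries, while with up to 2 mismatches the shares were 81.8% and 92.3%. The core match lay a median of 13 bp from the summit in members and 10 bp in regions called in all 4 libraries. It lay within 20 bp of the summit in 71.1% ± 1.51 of the matching members and in 87.7% ± 0.857 of the matching regions called in all 4. Of the matches with exactly 1 mismatch in the replicate 1 windows, 73.4% had it at position 5 in members, 64.2% in regions called in 1 MUT_CTCF library and 49.8% in those called in all 4. Position 5 is where the 2 commonest cores depart from the motif.

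The 2 commonest cores were found in 32.5% ± 0.051 of members, 27.8% ± 0.0346 of regions called in 1 MUT_CTCF library and 16.5% ± 0.00263 of those called in all 4 libraries. Other core matches had the opposite order, with 21.99% ± 0.051, 31.9% ± 0.104 and 53.0% ± 0.0316. The 2 commonest cores thus made up 59.7% of the members' matches and 23.7% of the matches in regions called in all 4 libraries. In members, 60.8% of the commonest cores were followed, after 2 further bases, by AGATC, the string seen in the 29-base sequences above, and 8.09% of other core matches were. In regions called in all 4 libraries these shares were 40.5% and 3.71%. A CG dinucleotide, the letters that can be methylated, stood in 29.3% of the members' cores and 38.0% of those of regions called in all 4.

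**Figure D3:**
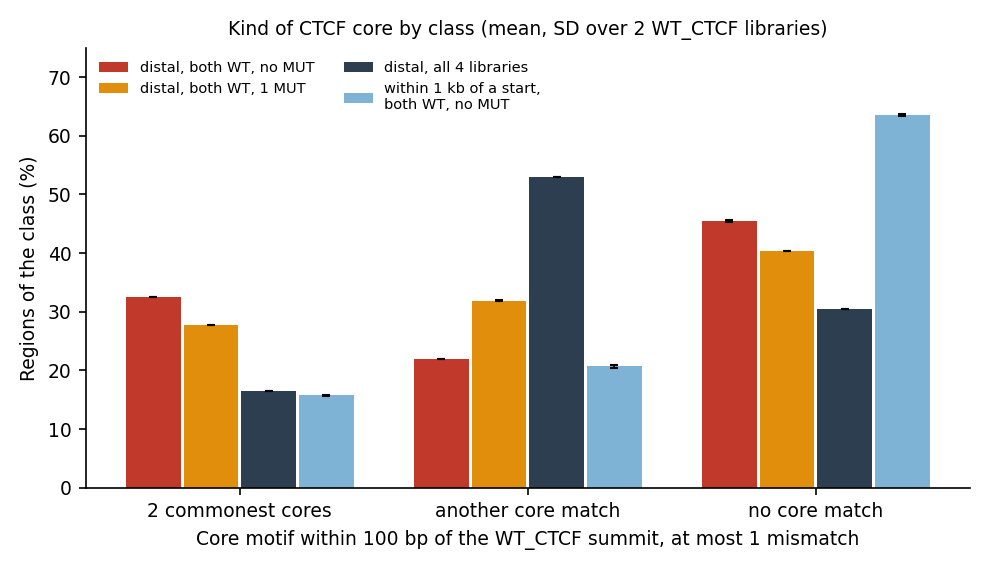
Percent of regions of each class (vertical axis) with 1 of the 2 commonest cores, with another core match or with no match (horizontal axis), as the mean of the 2 WT_CTCF libraries with the SD as error bars. The members (distal, both WT, no MUT) have 32.5% with the 2 commonest cores, against 16.5% in distal regions called in all 4 libraries, and 21.99% with other matches, against 53.0%.

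Since the members had low scores, the same shares were read within ranges of the WT_CTCF score. At a lower score of 13 to 57, 33.5% of members and 12.9% of regions called in all 4 libraries held 1 of the 2 commonest cores. At 92 to 138 these shares were 32.9% and 24.7%, and at 204 to 300 they were 27.6% and 22.2%. The members had the higher share in each of the 6 lowest deciles, although the sixth, at 301 to 424, held only 54 members. Other core matches had the lower share in members in each of these deciles, with 17.3% against 25.3% at the lowest scores and 33.4% against 40.8% at 204 to 300. The sum of both kinds therefore changed its order with the score: it was 50.8% in members against 38.2% at scores of 13 to 57 and 56.4% against 62.3% at 139 to 203. Averaged over score ranges with the members as weights, the motif share of members was 6.12 percentage points above that of regions called in all 4 libraries, whereas without regard to score it was 14.9 points lower (a difference of -14.94). This positive average comes from the 2 lowest ranges, which hold most members and where only 2.28% of 4080 and 9.58% of 4051 regions were called in all 4 libraries. In the other 4 ranges up to a score of 424 the sum was lower in members, by the least at 92 to 138, with 57.2% against 58.2%.

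**Figure D4:**
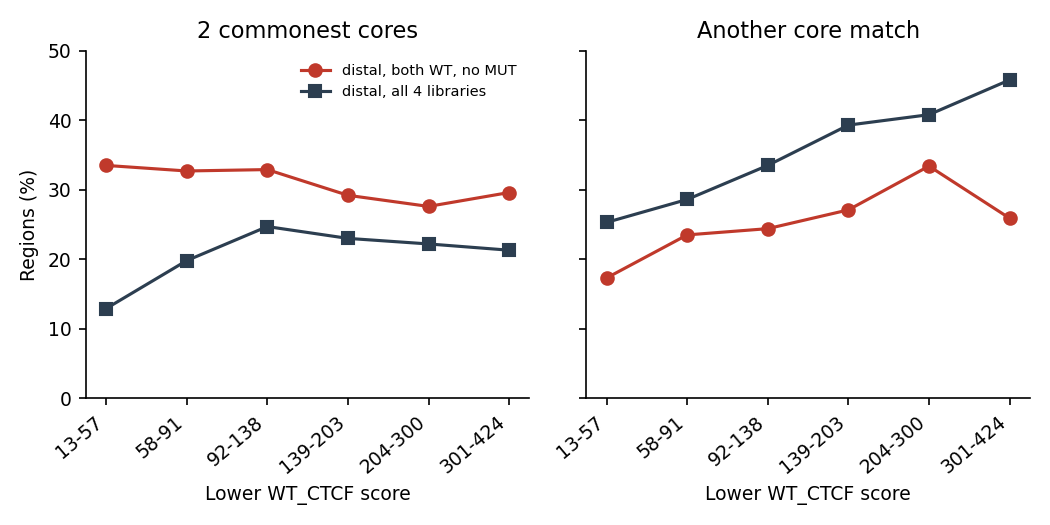
Percent of regions (vertical axes) with 1 of the 2 commonest cores (left) or with another core match (right) within ranges of the lower WT_CTCF score (horizontal axes), as the mean of the 2 WT_CTCF libraries, for members and for distal regions called in all 4 libraries. Members lie above regions called in all 4 libraries on the left and below them on the right in all 6 ranges, the highest of which holds 54 members.

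Read the other way, the kind of core went with how often a MUT_CTCF peak was missing within a score range. At scores of 92 to 138, 50.2% of the 1288 distal regions with 1 of the 2 commonest cores had no MUT_CTCF peak, against 38.5% of the 1244 with another match, 45.1% of the 1869 without a match and 31.6% of the 320 with a core without mismatch. The regions with a core without mismatch are a part of those with another match. At 139 to 203 these shares were 24.2%, 16.7%, 24.5% and 11.8%. Regions with a complete core had the lowest share in each of 6 score ranges. The last range here joined all scores from 301 upward, so regions in it were not of equal score. The windows of WT_CTCF replicate 2 gave shares within 1.32 percentage points of those of replicate 1.

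Part of the members' sequence recurs in the genome. Stretches of 31 bases were sampled every 10 bp within 100 bp of the summit in WT_CTCF replicate 1 and counted over the genome on both strands. Their median count was above 1 in 2025 members (20.9%), in 12.8% of regions called in 1 MUT_CTCF library and in 3.42% of those called in all 4. It was 10 or more in 12.1%, 6.86% and 1.31%. In members with 1 of the 2 commonest cores the median count was above 1 in 47.3%, against 5.15% of members with another match and 9.59% of those without one. Recurring sequence was also more common in members than in regions called in all 4 libraries within score ranges. The shares were 26.9% against 12.9% at 13 to 57, where only 2.28% of 4080 regions were called in all 4. They were 12.8% against 7.53% at 139 to 203. The authors had removed reads that aligned to several places, which lowers the reads that such regions can keep in every library, and its part in these shares was not tested. Identical 29-base core sequences were shared by 2 or more members in 29.1% of the 5162 members with a match outside chromosome 18, so these members are not independent examples of sequence; among regions called in all 4 libraries the share was 6.0%.

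A part of the few strong members had another composition. The median G+C within 100 bp of the summit was 45.3% in members and 47.3% in regions called in all 4 libraries, with a median of 2 CpG per window in both. A window of over 65% G+C was found in 79 members and 160 regions called in all 4 libraries. Of the 76 members with a lower score over 300, 21 (27.6%) were over 65% G+C, against 139 (0.694%) of the regions called in all 4 libraries with such scores. The other 55 strong members had a median of 3 CpG per window. Of these 55, 18 held 1 of the 2 commonest cores and 8 recurred in the genome by the median count. At scores of 139 to 203, 16 of 23 distal regions over 65% G+C had no MUT_CTCF peak (69.6%), against 29.9% at 60 to 65% G+C and 19.9% to 24.2% in each range below 60%. At 204 to 300 the count was 11 of 24 (45.8%), against 9.68% at 60 to 65% G+C, and from 301 upward it was 21 of 168 (12.5%), against 0.98%. The windows of WT_CTCF replicate 2 gave 82.6%, 47.8% and 12.9% for the same score ranges. At lower scores the G+C-rich regions were few and had no common order. All 7 at 13 to 57 had no MUT_CTCF peak, against 88.5% of the other regions, 6 of 12 (50%) had none at 58 to 91, against 72.3%, and 18 of 26 (69.2%) had none at 92 to 138, against 44.6%. Below a G+C of 60% the share stayed between 5.37% and 7.17% at scores of 204 to 300.

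**Figure D5:**
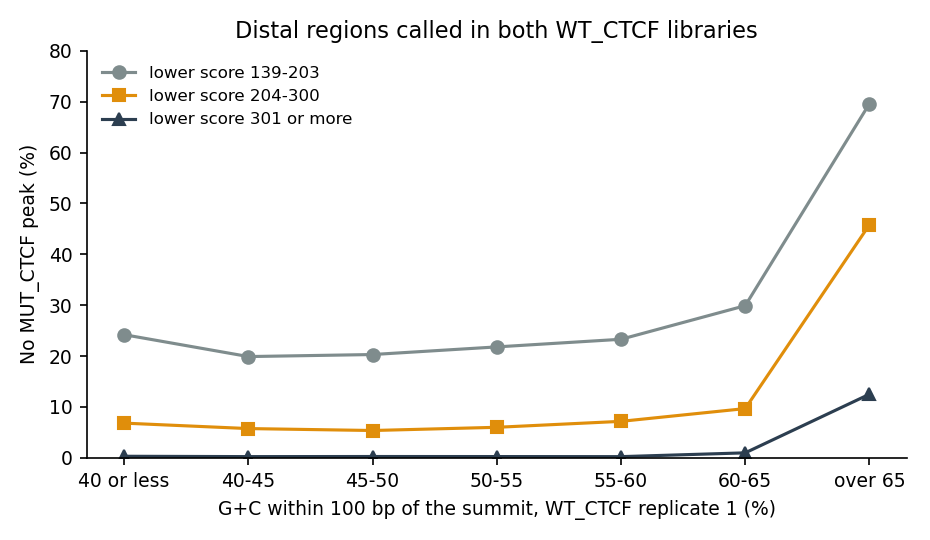
Percent of distal regions called in both WT_CTCF libraries that had no MUT_CTCF peak (vertical axis) by G+C within 100 bp of the summit in WT_CTCF replicate 1 (horizontal axis, percent), in 3 ranges of the lower WT_CTCF score. Above 65% G+C the shares are 69.6%, 45.8% and 12.5% of 23, 24 and 168 regions, and each is the highest of its line.

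With all scores from 139 upward joined, 48 of 215 regions over 65% G+C had no MUT_CTCF peak (22.3%), against 1146 of 27906 at 65% or less (4.11%). The share was 15.8% of the 139 that lay more than 5 kb from every start and 34.2% of the 76 at 1 to 5 kb. Of the 48 members, 24 touched an exon, 19 were intergenic and 5 intronic, none held 1 of the 2 commonest cores and none recurred in the genome by the median count. Their windows held a median of 20.5 CpG, against 2 in members of lower G+C at the same scores. The median authors' mean of the 48 was 213.6, against 71.5 in those members of lower G+C. In regions called in all 4 libraries at these scores it was 381.5 over 65% G+C and 210 at 65% or less. This mean takes in the MUT_CTCF libraries, and their part in it was not separated here. A core match was found in 21 of the 48. A GC box, the string GGGCGG bound by Sp and Klf zinc finger proteins, was found in 45.8% of them and in 46.7% of the G+C-rich regions called in all 4 libraries. As a library-wide value, 0.617% and 0.607% of all distal regions called in WT_CTCF replicates 1 and 2 were over 65% G+C, against 0.503% and 0.515% in MUT_CTCF replicates 1 and 2. Within 1 kb of a start these shares were 12.2%, 11.6%, 7.44% and 7.32%. The part of library G+C in the result was not tested.

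The 5 members with the highest lower score were named by rule, and 4 of them lay on coding exons. The highest, chr8:87426845-87427390, covered coding sequence of Klf1 (ENSMUSG00000054191.7), a zinc finger transcription factor of red blood cell formation, 1018 bp from its start and so just beyond the limit. It scored 944 and 883 in WT_CTCF replicates 1 and 2, had no peak in either MUT_CTCF library and had the highest authors' mean of all members, 672.8. The second, chr9:107803610-107804340, lay on coding sequence of Mon1a, a gene of endosome and vacuole trafficking, and scored 873 and 1070. The nearest protein-coding start, 4880 bp away, was that of Mst1r, a receptor tyrosine kinase. The third, chr2:74493387-74494127, covered coding sequence and part of an untranslated region of Evx2 (ENSMUSG00000001815.8), a homeobox gene beside the Hoxd cluster. It scored 847 and 813, its window was 76.6% G+C and its authors' mean was 522.8. The fourth, chr16:35156386-35156882, lay on coding sequence of Adcy5 (ENSMUSG00000022840.7), an adenylyl cyclase, 1423 bp from its start, and scored 742 and 1045 with 78.6% G+C. The fifth was the intergenic region near Gm1043 printed above. All 5 windows were above 60% G+C. The member with the next highest authors' mean after Klf1, chr11:96883087-96883750, lay on coding sequence of Sp6, a zinc finger factor of tooth and skin, with a mean of 587.8 and scores of 319 and 362.

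Their cores can be set beside those of the strongest regions that kept their call. The 5 highest-scoring members with a core match are given with 8 bases on either side and the core in capitals, on the strand of the motif, with mm9 positions.
Klf1 coding exon, chr8:87427145-87427173, reverse strand: ccgtgggaCCAGCAGAAGGCGccgcgagc
Mon1a coding exon, chr9:107803885-107803913, forward strand: gcccataaCCAGCTGGTGGCGctcgtgcg
Evx2 exon, chr2:74493575-74493603, reverse strand: tcctgctgCCGCTAGGGGGCGccccgggg
Adcy5 coding exon, chr16:35156568-35156596, reverse strand: cgctgccgCCCGCAGGGGGCGcccgggtg
Intergenic, 55575 bp from Ezh2, chr6:47601196-47601224, reverse strand: catgccgaCCACTAGGGGTCGggcgcgct
Each of these cores had 1 mismatch and ended in CG, and none was 1 of the 2 commonest. In the order shown they lay at 90, -30, -54, -48 and 5 bp from the summit of WT_CTCF replicate 1, so only the last was within 20 bp of it. The last lies near Ezh2, the histone methyltransferase of Polycomb complex PRC2, with scores of 673 and 794. The 2 highest-scoring members that did hold a commonest core follow.
Intron, 8345 bp from the start of Crlf3, chr11:79880069-79880097, reverse strand: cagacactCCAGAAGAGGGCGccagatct
Intergenic, 25197 bp from Apold1, chr6:134906554-134906582, forward strand: tgaggaagCCAGAAGAGGGCAtcaaatcc
They scored 520 and 672, and 536 and 456, and the first of them is the fourth of the recurring 29-base sequences. The 3 strongest distal regions called in all 4 libraries are shown for contrast.
Intergenic, 35373 bp from Gm5533, chr1:183819079-183819107, forward strand: gacattagCCAGCAGAGGGCGctgcctaa
Exon, 1196 bp from Fam129b, chr2:32768108-32768136, forward strand: gtgagacgCCAGCAGGCGGCAgtatttgc
Intergenic, 10960 bp from Slc46a1, chr11:78267343-78267371, forward strand: cctgcttgCCAGAAGAGGGCAccagatct
Their scores were 19708 and 20746, 19592 and 20526, and 19245 and 20325 in WT_CTCF replicates 1 and 2, far above those of any member. The first of the 3 had no mismatch, and the third held the first of the 2 commonest cores, so that core was also found in regions called in MUT_CTCF.

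At the other end were members near the calling limit. The 3 with the lowest lower scores were an intergenic region 66172 bp from Chd9, chr8:93286283-93286562, with scores of 13 and 21, a region in Cdv3, chr9:103264711-103265033, with 13 and 29, and a region in the non-coding gene 1700095J07Rik, chr6:30273619-30273900, with 29 and 14. The last held a commonest core in sequence with a median of 55 copies. At the distance limit, the members nearest to a start lay 1001 bp from Ube2t, chr1:136869534-136869907, with scores of 53 and 71, and 1001 bp from 1110037F02Rik, chr4:11411635-11412104, with 150 and 114. The nearest regions outside the rule lay 1000 bp from a start of Pdf, chr8:109573514-109573867, with 178 and 110, and 998 bp from Bbs10, chr10:110736733-110736961, with 57 and 57. The scores on both sides of the limit overlapped.

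The 1569 regions within 1 kb of a start that had the same calls were 28.5% of the 5511 such regions called in both WT_CTCF libraries. Their median scores, 96 and 111, were near those of the members. They differed in sequence, with a median G+C of 52.7%, a core match in 36.5% ± 0.18, 1 of the 2 commonest cores in 15.8% ± 0.0901 and a window of over 65% G+C in 21.6% ± 0.0451, against 0.851% ± 0.051 of members.

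Members were spread over the genome. Of the members, 48.9% were intergenic, 44.5% intronic and 6.55% touched an exon, against 51.7%, 37.9% and 10.4% of distal regions called in all 4 libraries. The median distance to the nearest start was 13377 bp, against 14387 bp. At scores of 139 to 203, intergenic, intronic and exonic regions had no MUT_CTCF peak in 21.3%, 21.5% and 24.9%. The order changed with the score: these shares were 88.8%, 88.3% and 87.1% at 13 to 57 and 6.36%, 5.53% and 9.03% at 204 to 300. The share of distal regions called in both WT_CTCF libraries that were members ran from 22% on chromosome 7 to 27.1% on chromosome 11, beside 23.9% over all chromosomes. The nearest MUT_CTCF peak to a member lay a median of 13009 bp away, and 545 members (5.62%) had one within 1 kb without touching it. The nearest region called in all 4 libraries lay a median of 15503 bp away, and distal regions called in all 4 libraries lay a median of 13494 bp from the next of their kind. A region called in all 4 libraries lay within 1 kb of 5.64% of members. Of distal regions called in all 4 libraries, 6.45% had another such region within 1 kb.

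Members were 19.1% of all distal regions, and most had another kind of region as neighbour. The share standing alone in a random order was not computed, so nothing particular to the members is read from the counts that follow. With no other region between them, 6590 members (68.0%) had no other member beside them, 1130 pairs and 207 runs of 3 were found, and the longest runs held 6 members. There were 2 of these. One, on chromosome 11 from 78401225 to 78619639, began in Nlk, a kinase known from Wnt signalling, and its 6 members had lower scores between 29 and 176. The other, on chromosome 16 from 33384131 to 33489552, lay wholly in Zfp148, a zinc finger gene, and its 6 members had lower scores between 47 and 163. Of the 12 members in both runs, 4 held 1 of the 2 commonest cores in both windows and 1 further member in the window of replicate 1.

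Motifs of other factors were searched in the same windows and in the flanks. The octamer ATTTGCAT, bound by Oct4, was found in 0.974% of members and 1.21% of the flanks. The estrogen-related receptor motif TCAAGGTCA, bound by Esrrb, was found in 0.314% and 0.557%, the Klf motif CCACACCC in 1.36% and 1.44%, the AP-1 motif TGANTCA in 6.01% and 5.58%, and the GC box in 3.88% and 3.31%. In regions called in all 4 libraries the same 5 motifs were found in 0.956%, 0.266%, 1.43%, 5.15% and 4.84%. All were searched on both strands, and the letters of each say only what is in these windows.

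Members near genes of the stem cell state were counted from 3 gene lists. Over all 22350 protein-coding genes, 65.2% had a member within 100 kb of a start, and 6482 genes were the nearest protein-coding gene of at least 1 member. Of the naive pluripotency list, 25 of 26 genes were found by symbol and 22 of these had a member within 100 kb; of 246 distal regions called in both WT_CTCF libraries near them, 71 were members (28.9%). Nanog, a homeobox factor of pluripotency, had 8 members and 11 regions called in all 4 libraries within 100 kb, and the highest lower score of these members was 125. Pou5f1, which encodes Oct4, had 6 members and 18 regions called in all 4 libraries, Zfp42, which encodes Rex1, had 6 and 5, and Esrrb had 4 and 7. Nr5a2, Nr0b1 and Lifr had no member within this distance.

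Of the germ-layer regulators, 28 of 29 genes were found and 21 had a member within 100 kb, and 42 of 194 regions near them were members (21.6%). Nodal, a signalling protein of the mesendoderm, had 5 members and 11 regions called in all 4 libraries, and Hand1, a factor of trophoblast and heart, had 5 and 8. Gata4, an endoderm and heart factor, had 3 and 3. Of the chromatin architecture list, 16 of 17 genes were found and 12 had a member, and 36 of 112 regions near them were members (32.1%). Pds5a and Pds5b, cohesin regulators, had 4 members with 1 region called in all 4 libraries and 5 with 1, and Yy1, a zinc finger protein of enhancer and promoter contacts, had 5 with 3, the strongest with a lower score of 362. Ctcf itself had 1 member and 8 regions called in all 4 libraries, and Ogt had 1 and 1. The 3 shares lie on either side of the 23.9% over all distal regions called in both WT_CTCF libraries. Neighbouring genes share regions, and nothing particular to a list is read from the shares.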

How the data were processed

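Deposited files of 4 CTCF ChIP libraries (2 WT_CTCF, 2 MUT_CTCF) were used. Per the submitters' processing notes and the study's methods, the authors used Trim Galore 0.4.4, Bowtie2 2.3.4.1 on mm9, MACS2 2.1.1.20160309, deepTools 3.1.1 and DESeq2 1.38.0, removed multiply aligned and duplicate reads, and scaled by Drosophila spike-in chromatin. The authors called peaks per library; each deposited list gives every peak's score and the offset of its summit. The authors' joined table gives a mean scaled signal over the 4 libraries per region. It also holds the authors' own comparison (a log2 fold change with its standard error, a Wald value, and p-values before and after adjustment), which was not used. The number of unused columns of per-sample values was 0.

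Overlap was at least 1 bp. Starts, exons and genes came from GENCODE vM1, and sequence from the mm9 assembly, whose chromosome lengths hold every region. Scripts ran in Python 3.11.15 with numba 0.67.0, pandas 2.3.3, numpy 2.4.6, matplotlib 3.10.9 and scipy 1.17.1, and the motif search, overlaps, start distances and copy counts were tested on made-up data. Recurring sequence was measured by 31-base copies, since the assembly used does not mark repeats. Score ranges, the G+C limit of 65% and the 2 commonest cores were chosen after the data were seen. Regions were named by the 5 highest lower WT_CTCF scores, the 3 highest authors' means, the 3 lowest lower scores, the 2 on each side of the distance limit and the longest runs of members. The members and gene lists were chosen with earlier results of these data known. No test was run, since the calls chose the members and regions are not replicates. Alternatives were the start distance, overlap, score, motif mismatches, window and each library left out. Depth is unknown, so no counting interval is given.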

Additional observations from a re-analysis of the deposited data

How the results depend on the processing

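In all, 72 alternatives of 12 values were computed. Of these, 18 stayed within the limit set for their kind of value (a ratio for the number of members, a spread for the others), 53 moved and 1 reversed. The spread was 0 for the median score, the median authors' mean and the median G+C, and 0.102 percentage points for the motif share. Even small changes in these values therefore counted as moved. The value that reversed is the motif share of members minus that of distal regions called in all 4 libraries, -14.94 percentage points, which was 6.12 within score ranges with the members as weights. It was -16.01 with no mismatch, -10.5 with up to 2, -17.83 within 50 bp of the summit, and -14.44 anywhere in the region; with a library left out it lay between -20.32 and -13.29. The motif share of members, 54.5%, was 4.13% with no mismatch, 81.8% with up to 2, 50.6% within 50 bp, 56.8% anywhere in the region, 65.9% with peaks at or above the pooled median score only, 57.1% at 50% overlap and 54.2% more than 5 kb from a start, and 49.1% to 55.5% with a library left out. The number of members lay between 7179 and 16187, the latter without WT_CTCF replicate 1, and between 11279 and 16187 with a library left out. The median score, 90, was 119.5 at 50% overlap, 91 beyond 5 kb, 403 with the score filter and 68 to 96 with a library left out. The median width, 271.5 bp, was 314.5 at 50% overlap, 480.5 with the score filter and 238 to 284 with a library left out. The median authors' mean, 46.0, was 55 at 50% overlap, 45.75 beyond 5 kb and 142.5 with the score filter, under which a MUT_CTCF peak below the limit no longer counts, so that regions with such a peak become members. The intergenic share, 48.9%, was 52.3% beyond 5 kb and 51.5% with protein-coding starts and genes only. Median G+C, 45.3%, was 48.5% within 50 bp and 44.6% over whole regions. The share without a MUT_CTCF peak in the lowest decile, 88.5%, was 98.4% by the authors' mean and 87.3% and 86.1% by each WT_CTCF replicate alone.

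Alternatives added after seeing the data follow. The motif difference was -20.74 in regions of a median of 1 copy and -31.02 for matches other than the 2 commonest cores. The share of members with 1 of the 2 commonest cores, 32.5%, was 31.02% beyond 5 kb, 21.6% with the score filter and 29.7% to 31.7% with a library left out. The share of members in recurring sequence, 20.9%, was 12.1% at 10 or more copies and 47.5% when any sampled stretch recurred. The share without a MUT_CTCF peak at over 65% G+C and scores from 139, 22.3%, was 15.8% beyond 5 kb, 9.25% over 60% G+C, 35.3% over 70% and 24.1% to 26.3% with a library left out. No test between WT_CTCF and MUT_CTCF was run, so none was paired by replicate number. The read depth is unknown here.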
